A study of Homo sapiens with 4 samples.

Results

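The transcripts described here are antisense RNAs, genes named for a protein-coding or other gene on the opposite strand with the ending -AS and a digit, together with the sense genes before that ending. The platform annotation named 480 such RNAs on the array, and the 224 whose mean over the 4 arrays lay at or above the median of all probe sets, 4.59 on the log2 scale, are the members, out of 10696 genes that met the same bound. Where a gene had several probe sets, the probe set with the highest mean was taken. All 224 matched a RefSeq gene entry, 220 of them of class lncRNA and 4 of class antisense_RNA. A sense partner carried a probe set for 151 members, and 137 of these partners met the bound, 14 lay under it, and for the other 73 members no probe set was named for the sense gene, so that their partners were not analysed here.

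RNA came from U2OS cells, a human osteosarcoma line, 48 hours after transfection at 50 nM. One group received siRNA against BRPF3, a scaffold protein of histone acetyltransferase complexes (2 arrays), and the other a scrambled control siRNA (2 arrays), with lipofectamine RNAiMAX as the carrier in both. The labels call the arrays of a group biological replicates but do not say how separate the cultures were, so each p-value reflects how far these arrays scatter, which may be technical, and 4 arrays limit the precision. No probe set was named for BRPF3 or for an antisense RNA of BRPF3, so depletion was not checked here. Of the markers of mesenchymal cells, VIM, FN1, RUNX2 and CD44 met the intensity bound and none passed the test, while TWIST1, with a mean of 3.20, and the 3 named endothelial markers lay under it. The epithelial marker EPCAM also met the bound, at 8.14 and 8.22 after BRPF3 siRNA, against 7.94 and 7.90 after control siRNA, and did not pass the test. CLDN4 (-0.53, arrays separated) and KRT14 (-0.18) met it too and did not pass, and the epithelial markers ESRP1 and KRT5 lay under it. Of the leukocyte markers LAPTM5 fell by 0.88 on the log2 scale and CD14 lay under the bound, with a mean of 4.10. The part of other cell types in the results was not tested.

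Antisense RNAs are transcribed from the strand opposite to another gene and can overlap its start, its body or its end. Some act on the partner by chromatin recruitment, by collision of polymerases or by pairing with its RNA, and many are short-lived products of promoters that fire in both directions and are cleared by the nuclear RNA exosome. A change in an antisense RNA therefore may or may not go with a change in its sense gene, and both were measured here on the same arrays. The labelling kit was one for whole transcripts. The positions of the probes were not used here, so whether an antisense probe set lies in sequence that its partner also covers was not checked.

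Most changes among the antisense RNAs ran upwards. After BRPF3 siRNA 25 of the 224 changed in limma's test, with a Benjamini-Hochberg adjusted p under 0.05 over all 10696 genes, against 15.8% of all genes tested. Of the antisense RNAs 24 rose and 1 fell, that is 10.7% and 0.446%. Among all genes tested 6.32% rose and 9.44% fell. The difference was above 0 for 147 antisense RNAs (65.6%), against 44.9% of all genes tested, and the median log2 difference was 0.08 for antisense RNAs and -0.03 for all genes. Both BRPF3 siRNA arrays lay above both control arrays for 88 antisense RNAs and below them for 37, where the shares among all genes tested were 27.3% and 35.9%. Together 125 antisense RNAs (55.8%) had separated groups, against 63.2% of all genes tested. Quantile normalization moved the median of all genes to 0.00 and that of the antisense RNAs to 0.09 (rounded), and again 24 rose and 1 fell. Of all genes 7.14% then rose and 6.71% fell. With the replicate number as a block 24 of the 224 rose and 6 fell, beside 6.29% and 8.7% of all genes. With an intensity trend 28 rose and 5 fell, beside 9.69% and 15% of all genes. Without the intensity bound 3 of the 224 rose and 1 fell, beside 1.24% and 1.5% of all genes. The risen share then lay near that of all genes. The calls depend on each array: most or all were lost when 1 was left out, which leaves 1 array in a group. The median antisense difference was 0.09 without control siRNA replicate 1 and 0.06 without control siRNA replicate 2. It was 0.09 without BRPF3 siRNA replicate 1 and 0.10 without BRPF3 siRNA replicate 2. That of all genes was -0.03 in each.

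**Figure D1:**
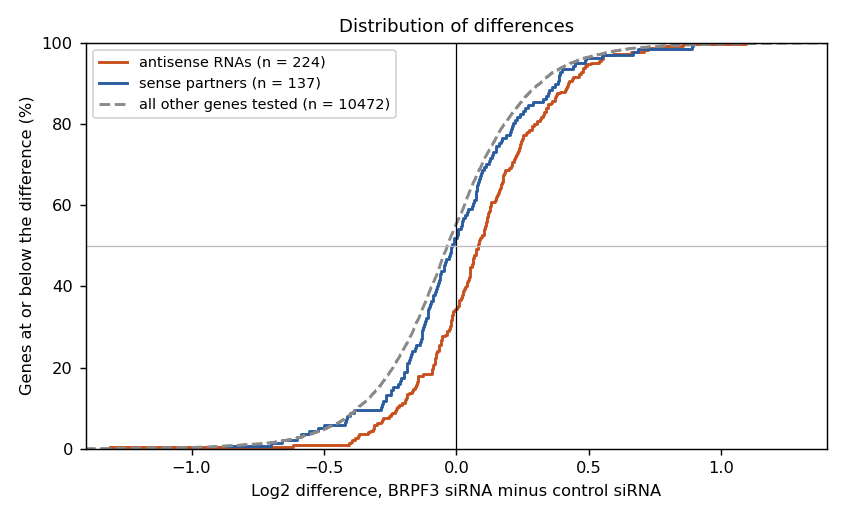
Cumulative share of genes (y axis, percent) by log2 difference between BRPF3 siRNA and control siRNA (x axis) for the 224 antisense RNAs, their 137 tested sense partners and the other 10472 genes tested. The antisense curve lies to the right of the others over most of its range and crosses 50% at 0.08, against -0.02 for the sense partners.

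Antisense RNAs were dimmer than most genes, with a median level of 5.41 over the 4 arrays, against 6.93 for all genes tested, so their differences were also set beside those of genes of like level. The median difference of antisense RNAs was 0.07 among 54 with a mean level under 5, 0.06 among 105 from 5 to 6, 0.13 among 43 from 6 to 7 and 0.19 among 22 at 7 or more. For the other genes the medians in the same ranges were -0.02, -0.01, -0.01 and -0.06. In the brightest range 9 of 22 antisense RNAs rose and 0 fell, against 354 risen and 645 fallen of 5174 other genes. That range has no upper limit, and levels in it were less alike, with a median of 7.66 for antisense RNAs and 8.38 for the other genes. Arrays of the BRPF3 siRNA group differed from each other with an SD of 0.22 over the antisense RNAs and arrays of the control group with an SD of 0.20. In RNA pooled from whole cultures, fewer cells that make a transcript and less of it per cell cannot be told apart.

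**Figure D2:**
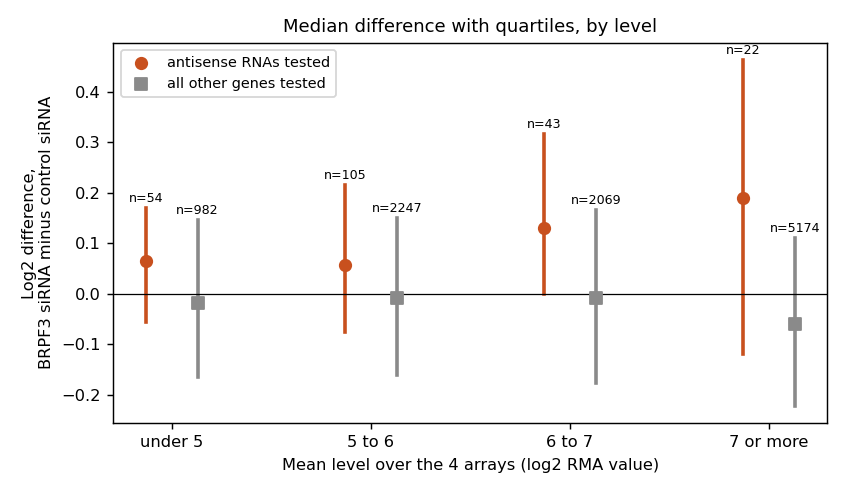
Median log2 difference between BRPF3 siRNA and control siRNA (y axis, points) with its quartiles (bars) in 4 ranges of mean level (x axis, log2 RMA value), for antisense RNAs and for all other genes tested, with the number of genes above each bar. The antisense median is above 0 in each range and highest, at 0.19, at levels of 7 or more, where the other genes have a median of -0.06.

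ZEB2-AS1, which overlaps the start of the gene of the zinc finger repressor ZEB2, had the largest rise. Its log2 level was 5.50 and 4.96 on the BRPF3 siRNA arrays, against 4.20 and 4.09 on the control arrays, a 2.13-fold difference (1.09 ± 0.18 on the log2 scale, with the moderated SE of limma and n = 2 in each group, as for all differences here, adjusted p = 0.0198). The arrays do not overlap, but the control arrays lie under the intensity bound, where differences are compressed, and ZEB2-AS1 met the bound through its level after BRPF3 siRNA. ZEB2 itself lay under the bound. A second, dimmer probe set of the gene, with a mean of 3.02, differed by 0.01 with overlapping arrays.

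TMPO-AS1 starts within the gene of TMPO, which encodes lamina-associated polypeptide of the nuclear envelope. It stood at 7.48 and 7.49 after BRPF3 siRNA, against 6.74 and 6.52 after control siRNA (0.85 ± 0.10, adjusted p = 0.0111). TGFB2-AS1, antisense to the gene of the growth factor TGF-beta 2, stood at 5.88 and 6.19 after BRPF3 siRNA, against 5.04 and 5.45 after control siRNA (0.79 ± 0.17, adjusted p = 0.0353). In both, the lower BRPF3 siRNA array lay above the higher control array.

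MCF2L-AS1, whose start points away from that of MCF2L, stood at 7.44 on each of the BRPF3 siRNA arrays, against 6.55 and 6.88 on the control arrays (0.72 ± 0.12). PSMD6-AS2, named for a subunit of the proteasome's regulatory particle, stood at 5.12 and 5.09 after BRPF3 siRNA, against 4.38 and 4.41 after control siRNA (0.71 ± 0.08), with the control arrays under the intensity bound. DLGAP1-AS1, named for a scaffold protein of synapses, was among the 3 brightest members and stood at 9.13 and 9.14 after BRPF3 siRNA, against 8.43 and 8.52 after control siRNA (0.66 ± 0.08, adjusted p = 0.0126). The brightest member, ZNF667-AS1, stood at 9.37 and 9.56 on the BRPF3 siRNA arrays, against 9.20 on each control array, and did not pass (0.26 ± 0.10, adjusted p = 0.113). The third brightest, URB1-AS1, stood at 8.69 and 8.63 after BRPF3 siRNA, against 8.70 and 8.65 after control siRNA, with overlapping arrays (-0.02 ± 0.08), and its partner URB1, a factor of ribosome assembly, fell by 0.40 ± 0.08.

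The other 18 risen antisense RNAs ran from MZF1-AS1 (0.59 ± 0.13) down to DDX11-AS1 (0.32 ± 0.08), with adjusted p-values up to 0.0488. They include MAGI2-AS3 (0.55 ± 0.11) and RASAL2-AS1 (0.55 ± 0.11), of which RASAL2 encodes a Ras GTPase-activating protein, ST3GAL6-AS1 (0.54 ± 0.10), named for a sialyltransferase, and NPPA-AS1 (0.51 ± 0.08), antisense to the gene of atrial natriuretic peptide. ELOA-AS1 (0.49 ± 0.08) is named for elongin A, a factor of transcript elongation, and LBX2-AS1 (0.48 ± 0.08) and FOXD2-AS1 (0.47 ± 0.08) for a homeobox and a forkhead regulator of development. The remaining ones were TMEM147-AS1, SBF2-AS1, NIFK-AS1, JMJD1C-AS1, VLDLR-AS1, ALOX12-AS1, ZNF205-AS1, DHRS4-AS1 and C10orf95-AS1, at 0.34 to 0.48. DHRS4 and DDX11 have near-identical gene copies, so the share of each copy in DHRS4-AS1 and DDX11-AS1 is uncertain. Of the 25 changed members 4 kept their call when all 14884 named genes were tested without an intensity bound: SH3PXD2A-AS1, TMPO-AS1, PSMD6-AS2 and DLGAP1-AS1.

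**Figure D3:**
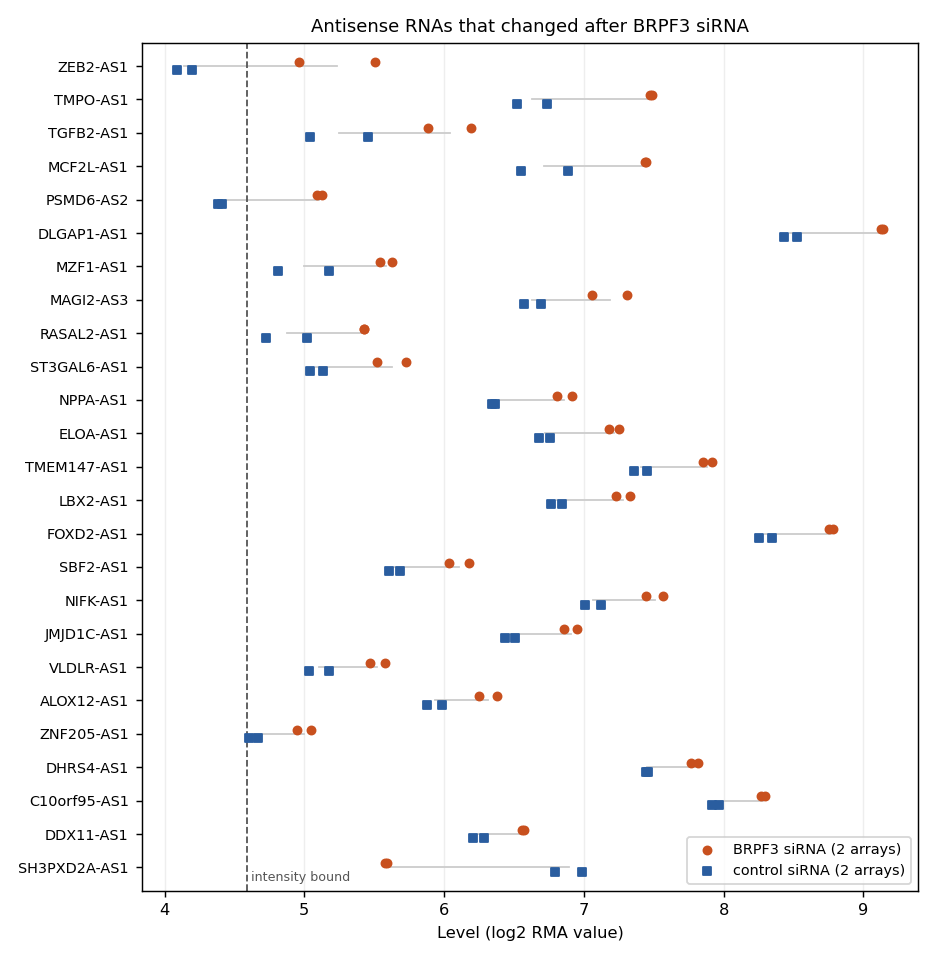
Log2 RMA level (x axis) of the 25 changed antisense RNAs on the 2 BRPF3 siRNA arrays (circles) and the 2 control siRNA arrays (squares), ordered by their difference, with a line between the group means and the intensity bound of 4.59 dashed. In 24 rows the circles lie to the right of the squares, and in SH3PXD2A-AS1 they lie to the left.

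Promoters were looked up for these RNAs, since many antisense RNAs share a start region with their partner. RefSeq windows of 250 bases before to 50 bases after the start (build GRCh38.p14) were found for 185 members, among them 21 of the 25 changed ones. The windows of the 4 largest risers whose start lies within 1 kb of a sense start are shown with that of the sense gene, so that the pairs of starts can be compared, and those of PSMD6-AS2 and DLGAP1-AS1 are shown as risers whose start lies farther away. Each runs 5′ to 3′ on the strand of its own gene, and capitals mark motifs. The first is CCAAT, which reads ATTGG on the other strand. The GC box reads GGGCGG, and CCGCCC when it lies on the other strand. The TATA box reads TATAAA, and TTTATA when it lies on the other strand.
ZEB2-AS1 (chr2:144519364-144519663, plus strand): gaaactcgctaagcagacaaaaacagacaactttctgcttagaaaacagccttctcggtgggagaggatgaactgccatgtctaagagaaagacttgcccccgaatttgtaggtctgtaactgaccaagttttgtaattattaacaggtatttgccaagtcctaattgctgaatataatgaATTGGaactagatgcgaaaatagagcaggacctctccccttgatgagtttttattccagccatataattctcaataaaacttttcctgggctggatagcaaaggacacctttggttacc
ZEB2 (chr2:144520070-144520369, minus strand): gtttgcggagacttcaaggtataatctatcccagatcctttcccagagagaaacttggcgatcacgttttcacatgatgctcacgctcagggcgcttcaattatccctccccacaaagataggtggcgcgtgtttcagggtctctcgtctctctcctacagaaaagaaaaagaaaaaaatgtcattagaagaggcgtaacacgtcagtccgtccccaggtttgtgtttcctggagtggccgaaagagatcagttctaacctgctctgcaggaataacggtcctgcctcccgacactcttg
TMPO-AS1 (chr12:98516177-98516476, minus strand): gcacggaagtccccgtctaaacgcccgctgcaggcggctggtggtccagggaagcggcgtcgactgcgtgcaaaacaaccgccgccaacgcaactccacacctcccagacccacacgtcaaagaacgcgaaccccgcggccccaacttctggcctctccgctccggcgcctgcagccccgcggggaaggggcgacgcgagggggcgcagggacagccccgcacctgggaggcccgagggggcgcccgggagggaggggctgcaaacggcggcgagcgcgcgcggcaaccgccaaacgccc
TMPO (chr12:98515340-98515639, plus strand): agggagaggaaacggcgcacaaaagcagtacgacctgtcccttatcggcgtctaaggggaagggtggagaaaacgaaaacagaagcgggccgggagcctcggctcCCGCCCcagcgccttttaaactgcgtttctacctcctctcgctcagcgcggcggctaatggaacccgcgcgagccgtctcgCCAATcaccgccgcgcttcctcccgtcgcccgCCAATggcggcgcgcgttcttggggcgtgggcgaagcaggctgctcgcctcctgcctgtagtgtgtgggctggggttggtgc
TGFB2-AS1 (chr1:218345629-218345928, minus strand): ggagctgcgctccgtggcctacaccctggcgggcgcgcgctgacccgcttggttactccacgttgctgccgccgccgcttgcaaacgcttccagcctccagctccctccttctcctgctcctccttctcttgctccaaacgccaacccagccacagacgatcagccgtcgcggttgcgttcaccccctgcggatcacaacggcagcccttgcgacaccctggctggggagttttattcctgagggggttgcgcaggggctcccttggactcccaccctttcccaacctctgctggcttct
TGFB2 (chr1:218345086-218345385, plus strand): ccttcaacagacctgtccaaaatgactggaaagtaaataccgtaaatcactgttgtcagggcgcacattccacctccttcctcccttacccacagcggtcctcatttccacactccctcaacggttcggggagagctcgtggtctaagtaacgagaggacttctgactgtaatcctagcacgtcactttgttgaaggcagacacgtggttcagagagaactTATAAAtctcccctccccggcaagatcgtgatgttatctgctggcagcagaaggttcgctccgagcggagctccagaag
MCF2L-AS1 (chr13:112968589-112968888, minus strand): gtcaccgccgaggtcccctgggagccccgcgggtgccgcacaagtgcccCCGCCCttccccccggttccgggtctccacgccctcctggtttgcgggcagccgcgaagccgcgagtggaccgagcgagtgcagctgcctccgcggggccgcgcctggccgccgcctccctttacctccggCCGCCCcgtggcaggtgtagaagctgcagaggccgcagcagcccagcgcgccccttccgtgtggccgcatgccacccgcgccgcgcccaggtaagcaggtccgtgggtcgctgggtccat
MCF2L (chr13:112968964-112969263, plus strand): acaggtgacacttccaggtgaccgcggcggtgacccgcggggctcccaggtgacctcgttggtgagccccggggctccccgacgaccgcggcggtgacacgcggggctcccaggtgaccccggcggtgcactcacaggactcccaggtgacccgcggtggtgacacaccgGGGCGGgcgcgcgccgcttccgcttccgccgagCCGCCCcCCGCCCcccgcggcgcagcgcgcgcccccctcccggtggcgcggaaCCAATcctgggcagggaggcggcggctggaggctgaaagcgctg
PSMD6-AS2 (chr3:64003772-64004071, plus strand): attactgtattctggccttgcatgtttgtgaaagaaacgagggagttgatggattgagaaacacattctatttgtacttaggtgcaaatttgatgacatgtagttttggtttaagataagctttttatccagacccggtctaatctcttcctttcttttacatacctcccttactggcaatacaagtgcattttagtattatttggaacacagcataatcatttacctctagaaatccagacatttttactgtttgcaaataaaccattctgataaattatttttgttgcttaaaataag
DLGAP1-AS1 (chr18:3593864-3594163, plus strand): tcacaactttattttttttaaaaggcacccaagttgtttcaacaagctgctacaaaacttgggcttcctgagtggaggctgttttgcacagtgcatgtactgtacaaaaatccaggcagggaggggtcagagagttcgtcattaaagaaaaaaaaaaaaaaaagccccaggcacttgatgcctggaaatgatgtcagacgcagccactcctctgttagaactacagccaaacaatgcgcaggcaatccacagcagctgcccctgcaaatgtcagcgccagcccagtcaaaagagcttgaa

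The windows differ in base composition. Those of TMPO-AS1 and MCF2L-AS1 hold 39 and 36 CpG dinucleotides, that of TGFB2-AS1 holds 22, and those of ZEB2-AS1, DLGAP1-AS1 and PSMD6-AS2 hold 4, 4 and 2. TMPO carries 2 CCAAT motifs and TGFB2 a TATAAA, which their antisense partners' windows do not hold. Over the 185 windows of antisense RNAs the median was 22 CpG, against 14 over the windows of all 27305 genes in the table, and it was 22 both for the 21 risen and for the 164 members that did not pass. CCAAT, on either strand, stood in 4 of the 21 risen windows and in 62 of the other 164, and in 35.7% of all windows. GGGCGG, on either strand, stood in 9 of the 21 and in 91 of the 164, and in 44.6% of all. TATAAA, on either strand, stood in 0 of the 21 and in 9 of the 164, and in 12% of all windows. A match of letters is a description of the window and not evidence of binding.

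The 1 member that fell, SH3PXD2A-AS1, overlaps the gene of SH3PXD2A, which encodes TKS5, a scaffold of podosomes and invadopodia. It was 5.57 and 5.59 after BRPF3 siRNA, against 6.79 and 6.99 after control siRNA, and fell by 1.31 ± 0.10 on the log2 scale (adjusted p = 0.00756). Its sense gene stood at 6.72 and 6.60 after BRPF3 siRNA, against 6.58 and 6.74 after control siRNA, with overlapping arrays and a difference of 0.00 ± 0.10 (adjusted p = 0.993). SH3PXD2A-AS1 was thus 2.48-fold lower beside a sense transcript whose arrays overlapped. A1BG-AS1, antisense to the gene of the plasma glycoprotein A1BG, stood at 6.14 and 6.41 after BRPF3 siRNA, against 5.90 and 5.84 after control siRNA. Its arrays were separated, but the difference of 0.41 ± 0.11 did not pass (adjusted p = 0.0599). A1BG itself differed by -0.07 ± 0.14 with overlapping arrays. Both RNAs were taken up by name.

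Of the 137 sense partners tested, 14 rose and 13 fell (10.2% and 9.49%, beside 6.32% and 9.44% of all genes tested), and of their 137 antisense RNAs 14 rose and 1 fell. The median difference of the sense partners was -0.02, and 0.02 after quantile or cyclic loess normalization, against 0.10 for their antisense RNAs. The difference between the sets was not tested. Among the 137 pairs 2 had both genes risen, VLDLR with VLDLR-AS1 and NPPA with NPPA-AS1. In 2 the antisense RNA rose and the sense gene fell, NIFK and ZNF205. In 10 the antisense RNA rose beside a sense gene that did not pass, with sense differences from -0.19 for TMEM147 to 0.29 for MZF1, in 12 the sense gene rose and in 11 it fell beside an antisense RNA that did not pass, in 1, SH3PXD2A, the antisense RNA fell beside a sense gene that did not pass, and in 99 neither passed. The signs of the differences were the same in 70 pairs and opposite in 67. Across the 137 pairs the differences had a Pearson correlation of 0.03 and a Spearman correlation of 0.05, given as a description, since the pairs share the same 4 arrays.

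**Figure D4:**
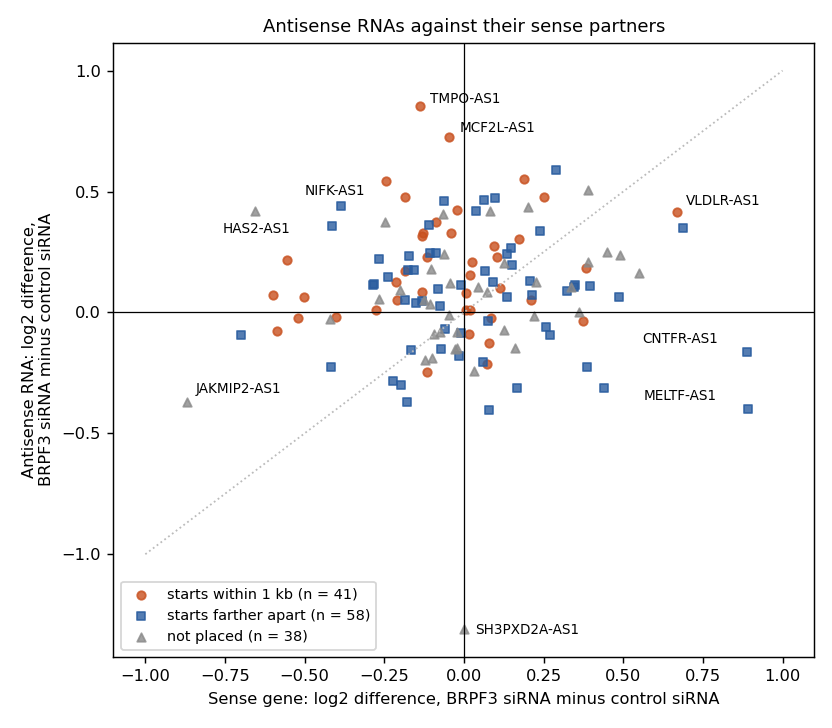
Log2 difference between BRPF3 siRNA and control siRNA of 137 antisense RNAs (y axis) against that of their sense genes (x axis), with the distance between the starts shown by colour and shape and equal change as a dotted line. Points scatter around both zero lines with a Pearson correlation of 0.03, and SH3PXD2A-AS1 at -1.31 stands over a sense difference of 0.00.

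NIFK encodes a nucleolar protein that binds Ki-67. Its level was 10.87 and 10.92 after BRPF3 siRNA, against 11.29 and 11.27 after control siRNA, a fall of 0.39 ± 0.08 (adjusted p = 0.0301), while NIFK-AS1 stood at 7.44 and 7.57 after BRPF3 siRNA, against 7.01 and 7.12 after control siRNA (0.44 ± 0.09, adjusted p = 0.0313). ZNF205, a zinc finger gene, fell by 0.41 ± 0.09 and ZNF205-AS1 rose by 0.36 ± 0.08. VLDLR, the very low density lipoprotein receptor, rose by 0.67 ± 0.12 and VLDLR-AS1 by 0.42 ± 0.09. NPPA rose by 0.39 ± 0.09 and NPPA-AS1 by 0.51 ± 0.08.

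To compare the change of each antisense RNA with that of its partner, the difference between their log2 values was taken within each array and set to 0 at the control mean, which cancels any shift common to an array. With 2 arrays against 2 an exact permutation test cannot go below a two-sided p of 0.333, so these values carry no call. The largest shift towards the antisense RNA was that of HAS2-AS1 over HAS2, the main hyaluronan synthase of mesenchymal cells: 0.86 and 1.29 on the BRPF3 siRNA arrays, against -0.01 and 0.01 on the control arrays (mean shift 1.08). HAS2 fell by 0.66 ± 0.09 (adjusted p = 0.0150) and HAS2-AS1 differed by 0.42 ± 0.11 (adjusted p = 0.0538). HAS2-AS1 and HHIP-AS1 met the intensity bound only through their level after BRPF3 siRNA, with control means of 4.49 and 4.56. HHIP-AS1 over HHIP, an inhibitor of hedgehog ligands whose mean over the 4 arrays lay under the bound, shifted by 1.02, and TMPO-AS1 over TMPO by 0.99. HHIP-AS1 itself differed by 0.25 and did not pass. HHIP differed by -0.77 ± 0.10 (adjusted p = 0.0421 in limma's test without the bound). It stood at 3.92 and 4.09 after BRPF3 siRNA, against 4.75 and 4.80 after control siRNA, where it lay above the bound. The array values of the TMPO pair were 1.00 and 0.98 after BRPF3 siRNA, against 0.12 and -0.12 after control siRNA. TMPO itself differed by -0.14 ± 0.08 (adjusted p = 0.260).

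The largest shifts towards the sense gene were those of SH3PXD2A-AS1 (-1.31), MELTF-AS1 (-1.29) and CNTFR-AS1 (-1.05). In the last 2 the sense gene rose: MELTF, the iron-binding melanotransferrin, by 0.89 ± 0.09 and CNTFR, the receptor of ciliary neurotrophic factor, by 0.89 ± 0.08. MELTF-AS1 itself differed by -0.40 ± 0.11 with separated arrays (adjusted p = 0.0641), and CNTFR-AS1 by -0.16 ± 0.13 with overlapping arrays. The median shift towards the antisense RNA was 0.12 over all 151 measured pairs and 0.10 over the 137 with both genes tested.

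Further pairs were picked after their values were seen, for sense genes of known function. PCNA, the ring that tethers DNA polymerases to their template, fell by 0.52 ± 0.08 (adjusted p = 0.0195), and PCNA-AS1, whose start lies 372 bases from a PCNA start, stood at 6.78 and 6.73 after BRPF3 siRNA, against 6.68 and 6.88 after control siRNA (-0.02 ± 0.10). PCGF3, a Polycomb ring finger protein, fell by 0.70 ± 0.08 beside PCGF3-AS1 at -0.09 ± 0.10. UGDH, which makes the sugar donor UDP-glucuronate, fell by 0.59 ± 0.08 beside UGDH-AS1 at -0.08 ± 0.12. LOXL2, a collagen-crosslinking oxidase, rose by 0.55 ± 0.08 beside LOXL2-AS1 at 0.16 ± 0.16, and TMEM44 rose by 0.49 ± 0.08 beside TMEM44-AS1 at 0.06 ± 0.08. In these pairs the sense gene passed the test and the antisense RNA did not.

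Antisense RNAs were then grouped by where they start. For 61 members the starts were not both listed, so they were not placed, and 3 of these rose and SH3PXD2A-AS1 fell. Distances ran from the first listed start of the antisense RNA to the nearest listed start of the sense gene. In 42 pairs these starts lay within 1 kb and pointed away from each other. In 40 the antisense start lay within 1 kb inside the sense gene, and in 81 these starts were farther apart. Of the 82 antisense RNAs with a start within 1 kb, 11 rose and 0 fell, 60 had a difference above 0 and the median was 0.12. Of the 81 with starts farther apart 10 rose and 0 fell, 47 had a difference above 0 and the median was 0.05. The risen shares were 13.4% and 12.3%, beside 10.7% of all antisense RNAs. Of all genes tested 6.32% rose and 9.44% fell. Separated arrays were found upwards in 41 (50%) and downwards in 6 (7.32%) of the 82 with near starts. In the other 81 they were found upwards in 29 (35.8%) and downwards in 19 (23.5%). The shares upwards and downwards were 39.3% and 16.5% among all antisense RNAs, and 27.3% and 35.9% among all genes tested. Whether the arrangements differ was not tested. The median shift of antisense over sense was 0.26 in 41 tested pairs with starts within 1 kb and 0.07 in 58 with starts farther apart.

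Antisense RNAs were also described by the function of the partner, in groups that are small and were drawn up after the values were seen, so no order among them is read. Of all antisense RNAs 10.7% rose, and of all genes tested 6.32% rose and 9.44% fell. Of 14 antisense RNAs of regulators of development 3 rose (21.4%) and 0 fell, with a median difference of 0.37, against 0.08 for all antisense RNAs. The 3 were FOXD2-AS1, LBX2-AS1 and ZEB2-AS1, and of these ZEB2-AS1 met the intensity bound only through the BRPF3 siRNA arrays. Antisense RNAs of other regulators had differences that did not pass: MSC-AS1 (0.48 ± 0.13, adjusted p = 0.0601), MEIS1-AS3 (0.46 ± 0.15, adjusted p = 0.0886), ZEB1-AS1 (0.43 ± 0.14, adjusted p = 0.0880) and LHX4-AS1 (0.31 ± 0.08, adjusted p = 0.0524). The HOX cluster RNAs HOXB-AS3 (0.18 ± 0.09) and HOXD-AS2 (0.04 ± 0.14) did not pass either. Of the 8 tested sense genes of these regulators 0 rose and 0 fell in limma's test, and ZEB1, a repressor of epithelial genes, differed by -0.02 ± 0.11 (adjusted p = 0.898).

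Among 13 antisense RNAs of matrix, adhesion and growth factor genes 2 rose (15.4%), TGFB2-AS1 and VLDLR-AS1, with 0 fallen and a median of 0.16. The lipoprotein receptor VLDLR was counted in this group. Here 5 of 8 tested sense genes rose (62.5%), LOXL2, GAS6, NCAM1, LRP4 and VLDLR, and HAS2 fell. GAS6, a ligand of TAM receptors, rose by 0.34 ± 0.08 and NCAM1, a neural adhesion molecule, by 0.45 ± 0.08. Of 13 antisense RNAs of cell cycle, replication and repair genes 2 rose (15.4%), TMPO-AS1 and DDX11-AS1, and 0 fell, and of their 8 tested sense genes 1 fell, PCNA. Of 12 antisense RNAs of chromatin and transcription genes 2 rose (16.7%), JMJD1C-AS1 and ELOA-AS1, and of 12 antisense RNAs of zinc finger genes 2 rose (16.7%), MZF1-AS1 and ZNF205-AS1, with 0 fallen in either group. Of 4 antisense RNAs of proteasome genes 1 rose (25%), PSMD6-AS2, whose control arrays lay under the bound, and of 8 of mitochondrial genes 0 rose and 0 fell, with a median of -0.02.

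Other noncoding classes were set beside the antisense RNAs. Of 148 tested long intergenic RNAs named LINC, 14 rose (9.46%) and 8 fell (5.41%), beside 6.32% and 9.44% of all genes tested, with a median difference of 0.02. Of 64 divergent transcripts named -DT, 3 rose and 3 fell (4.69% each), with a median of 0.01, and of 9 SNHG host genes of small nucleolar RNAs 0 rose and 0 fell, with a median of -0.01. Of the 9 intronic transcripts named -IT that were tested, 0 rose and 0 fell. For comparison, 10.7% of the antisense RNAs rose and 0.446% fell with a median of 0.08, so the risen shares of antisense RNAs and LINC RNAs lay close together, and no test of these differences between classes was made.

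Genes that clear or sense antisense RNA were described from 3 lists. The nuclear RNA exosome degrades unstable nuclear transcripts, and adaptor complexes hand it its substrates. Of 17 tested subunits and adaptors 0 rose and 4 fell (23.5%, against 9.44% of all genes tested), with a median of -0.22, against -0.03 for all genes. Only 17.6% of them had a difference above 0, against 44.9% of all genes tested. Their median level was 8.41. Of all genes other than antisense RNAs at levels of 7 or more, 12.5% fell and 40.4% had a difference above 0, with a median of -0.06. For the rest of the 22 listed genes no probe set was named. RBM7, the RNA-binding subunit of the nuclear exosome targeting complex, stood at 6.92 and 6.97 after BRPF3 siRNA, against 7.55 and 7.43 after control siRNA, and fell by 0.54 ± 0.08 (adjusted p = 0.0186). EXOSC9, a ring subunit, averaged 8.05 ± 0.07 after BRPF3 siRNA and 8.50 ± 0.09 after control siRNA (SD, n = 2 each), and fell by 0.45 ± 0.09. C1D, a cofactor of the nuclear exosome, fell by 0.44 ± 0.10, and DIS3, its processive nuclease, by 0.35 ± 0.08. The arrays of these 4 genes did not overlap. The helicase MTREX (-0.25 ± 0.09, adjusted p = 0.0999) and the second nuclease EXOSC10 (0.02 ± 0.08) did not pass, and the highest tested members were TENT4B (0.11 ± 0.08) and EXOSC10. After quantile or cyclic loess normalization DIS3 lost its call, leaving 3 fallen, and with 1 array left out the count was 0 or 1 (0 without control siRNA replicate 1, control siRNA replicate 2 or BRPF3 siRNA replicate 1). Without the intensity bound, or with all probe sets fitted, 0 of the 17 were called. The levels of these genes moved beside those of the antisense RNAs, and a part of the exosome in the antisense rises was not tested.

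**Figure D5:**
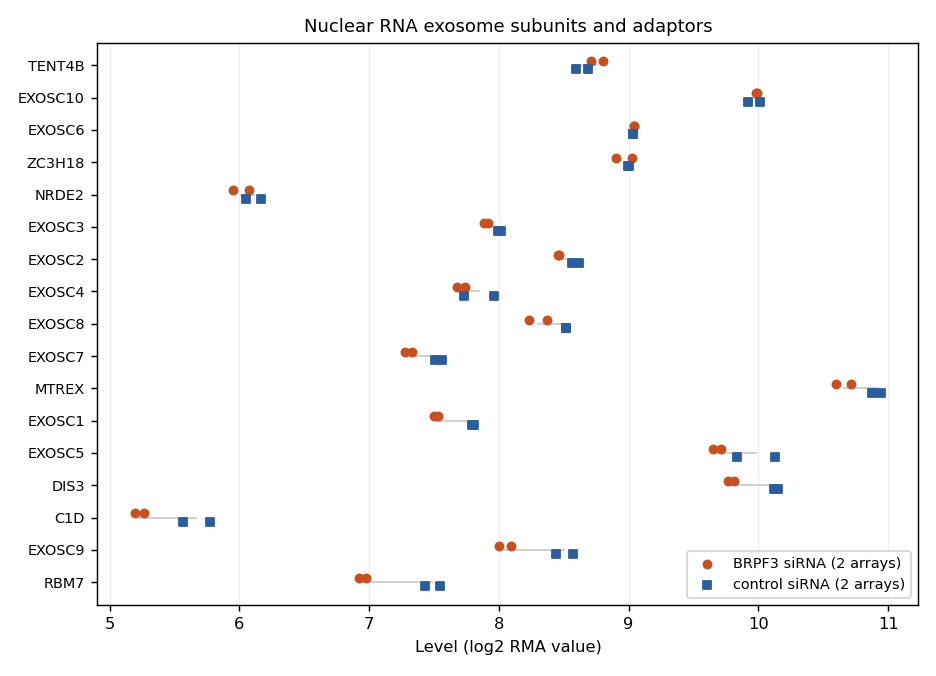
Log2 RMA level (x axis) of 17 genes of the nuclear RNA exosome and its adaptors on the 2 BRPF3 siRNA arrays (circles) and the 2 control siRNA arrays (squares), ordered by their difference. For RBM7, EXOSC9, C1D and DIS3 both circles lie to the left of both squares, while for EXOSC10 the groups overlap.

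Of 10 tested genes of transcription termination and decay from the 5′ end 0 rose and 1 fell (10%, near the 9.44% of all genes tested). That gene was INTS11, the endonuclease of the Integrator complex, which fell by 0.33 ± 0.08 (adjusted p = 0.0450) and lost its call after quantile normalization. The nuclear exonuclease XRN2 (-0.32 ± 0.09, adjusted p = 0.0583) and the decapping enzyme DCP2 (0.25 ± 0.10, adjusted p = 0.143) did not pass, nor did WDR82 (0.09 ± 0.08), a subunit of complexes that bind RNA polymerase. From a list of 15 sensors and editors of double-stranded RNA 6 genes were tested. No probe set was named for the editors ADAR and ADARB1 on that list. Of the 6 tested genes 0 rose and 2 fell (33.3%, of few genes). They were RIGI, a cytosolic RNA sensor, by 0.77 ± 0.10 (adjusted p = 0.0126), and the helicase DHX9, which unwinds RNA duplexes, by 0.33 ± 0.08 (adjusted p = 0.0415), which lost its call after quantile normalization. The sensor IFIH1 differed by 0.21 ± 0.08 (adjusted p = 0.117) and the endosomal sensor TLR3 by 0.08 ± 0.11, with overlapping arrays.

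Some values limit single members. Just inside the intensity bound lay DACT3-AS1, LINGO1-AS1 and MELTF-AS1, with means of 4.59, 4.60 and 4.61, and just outside it DLG5-AS1, TNFRSF14-AS1 and DLG1-AS1, with means of 4.57, 4.57 and 4.56. For 7 members the control mean alone lay under the bound and for 5 the BRPF3 siRNA mean, and 2 of these 12, ZEB2-AS1 and PSMD6-AS2, were called. A further probe set was named for 16 members. It differed by 0.36 for C10orf95-AS1 and by 0.66 for VLDLR-AS1, where the probe sets used differed by 0.34 and 0.42, and its arrays were separated upwards for both. For MAGI2-AS3 the other probe set, with a mean of 2.81, differed by 0.22, and for DHRS4-AS1, with a mean of 3.15, by 0.11. When the probe sets of each gene were averaged, 219 antisense RNAs met the bound, of which 21 rose and 1 fell. C10orf95-AS1 and DHRS4-AS1 then lost their calls, and ZEB2-AS1 no longer met the bound.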

How the data were processed

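Total RNA of 4 U2OS samples was labelled with a whole-transcript kit and hybridised to Affymetrix arrays, per the labels' protocols. The authors deposited log2 values per probe set made with RMA, which corrects background, normalizes between arrays and summarises probes, per the submitters' processing notes; its version and the genome build were not given in the sources used here. RMA compresses differences of dim probe sets.

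The platform annotation gave 1 gene symbol to 16098 of 53617 probe sets, standing for 14884 genes. The probe set with the highest mean was kept per gene, and the 10696 genes with a mean of at least 4.59 were tested in R 4.3.3 with limma 3.58.1 (lmFit, eBayes, both groups, no covariate), with Benjamini-Hochberg adjustment over all of them and a threshold of 0.05. The fit has 2 residual and 3.81 prior degrees of freedom. It was tested on simulated data. Pairs were compared within arrays by an exact permutation test.

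By the naming rule, named were every changed antisense RNA with its partner (partners not called are mostly given as a range), A1BG-AS1, SH3PXD2A-AS1, the 3 brightest, the 3 pairs at each extreme, the 3 members on each side of the bound and, per gene list, the 2 highest and 2 lowest genes by moderated t. All other genes are named after their values were seen. The members and lists were chosen with earlier results of these data known. Alternatives were other normalizations, filters, probe set rules and variance priors, a replicate block and each array left out. No array had values identical to another.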

Additional observations from a re-analysis of the deposited data

Results flagged for a closer look

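The 256 antisense RNAs under the intensity bound took part in no comparison above. When all 14884 named genes were fitted without the bound, 39 of them had an unadjusted p under 0.05 in limma's test, 32 higher and 7 lower after BRPF3 siRNA, and 1 passed after Benjamini-Hochberg adjustment (adjusted p = 0.0450). The 39 are 15.2% of these RNAs, near the 16.3% of all 4188 genes under the bound. Shares higher and lower were 12.5% and 2.73% of the antisense RNAs, against 9.93% and 6.4% of all genes under the bound. Their median log2 difference was 0.08, against 0.03 for all genes under the bound. These probe sets are dim, and how much of their signal is background was not tested.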

How the results depend on the processing

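The 25 changed antisense RNAs numbered 25 after quantile normalization, cyclic loess and median centring, with all 25 calls kept. Each of the 25 kept its direction under every alternative in which it was present. With 1 array left out this was fixed in advance, since the groups of these RNAs do not overlap. It was also fixed in fits that used the same values. Testing without an intensity bound left 4 changed antisense RNAs, 8 sense partners and 409 genes, and fitting all probe sets left 4, 8 and 1008. In each, 3 antisense RNAs rose and 1 fell. Without the bound 1.24% of all genes rose and 1.5% fell, and of all probe sets fitted 1.59% rose and 2.17% fell. Both fits hold more features than the main one, and why calls were lost was not tested. An intensity trend gave 33 antisense RNAs (28 rose, 5 fell) and 2645 genes. Leaving out 1 array gave 0 to 13 antisense RNAs, 0 to 13 sense partners and 0 to 791 genes, and a median antisense minus sense change of 0.11 to 0.16. The counts of 0 came without control siRNA replicate 1 or replicate 2, where limma gave 49 and 51 antisense RNAs, 32 and 34 sense partners, and 2446 and 2477 genes at an unadjusted p under 0.05. The lone remaining array is then assumed to vary like the other group. With the replicate number as a block 30 antisense RNAs were called (24 rose, 6 fell), 22 of the 25 among them, with 27 sense partners and 1604 genes. Same-numbered arrays deviated together with a correlation of 0.14 over 10696 genes, and the labels do not say that a number marks a shared batch. Of all called genes 59.9% fell on the deposited values, 48.4% after quantile normalization and 49% after cyclic loess, while 24 antisense RNAs rose and 1 fell in each. Dim signal and 2 arrays a group limit what could be called.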
